A study of Mus musculus with 8 samples.

Results

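The class I antigen presentation genes examined here are B2m, H2-K1, H2-D1, H2-T23, H2-M3, Tap1, Tap2, Tapbp, Nlrc5 and Erap1. They were taken as the rows of the deposited gene table whose gene symbol equals one of these names, which gave 10 of the 30743 genes of the table. The rule itself uses no measured value, but the members were chosen with earlier results of these data known. All 10 passed the minimum signal for testing, in a set of 15073 genes tested.

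Polyadenylated RNA was sequenced from the gastrocnemius muscle of 8 male mice aged 4 months, 4 DTG mice and 4 MckrtTA mice. DTG mice are double transgenic. They carry 1256[3Emut]Mck-rtTA, in which a muscle creatine kinase promoter drives the doxycycline-dependent activator rtTA in skeletal muscle, together with TRE-myrAkt1, a myristoylated and constitutively active Akt1 that rtTA switches on. The MckrtTA mice are littermates with the Mck-rtTA transgene alone. Both groups drank doxycycline at 0.5 mg/ml for 2 weeks and were starved overnight before the muscle was taken. The strain label of all mice reads Myo L8, and the alleles of the H2 locus that they carry are not given in the sources used here. The comparison asks which transcripts differ in muscle while it grows after Akt1 is switched on.

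MHC class I molecules display peptides from inside the cell on its surface, where CD8 T cells and natural killer cells read them. The proteasome cuts proteins into peptides, the TAP transporter carries the peptides into the endoplasmic reticulum, aminopeptidases trim them there, and tapasin helps to load them onto a heavy chain paired with beta-2 microglobulin. Most cell types make these proteins, interferons raise their production, and resting muscle fibres are known for making little of them.

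Values are called signal. They are RSEM estimates of the reads of a gene, scaled so that the 75th percentile over all genes is 1000 in each library. Libraries held an estimated 46.0 to 54.0 M reads in DTG and 45.6 to 58.6 M in MckrtTA mice, and 1 read was worth a signal of 1.25 to 1.68 in DTG libraries and 2.25 to 2.97 in MckrtTA libraries. The total signal was 1.91 times as high in MckrtTA as in DTG libraries, and the median log2 fold change over all genes tested was -0.26. Akt1 separated the groups, with a signal of 37986 to 69301 in DTG mice and 4047 to 5054 in MckrtTA mice. Myh4, the myosin of fast type IIb fibres, had a signal of 1481861 to 3775395 in DTG and 7356947 to 8677139 in MckrtTA muscle. Both groups thus carry a main transcript of fast muscle, at a lower signal in DTG mice (log2 fold change -1.99, not called). DTG mouse 253 stood apart from the rest, since its library correlated with the other DTG libraries at a Pearson r of 0.948 to 0.956 on the log2 scale, against 0.987 to 0.992 among those 3. It was also closer to the MckrtTA libraries, at an r of 0.910 to 0.915, than the other DTG libraries were, at 0.854 to 0.883. Values are given below for DTG mice 253, 283, 282 and 306 and for MckrtTA mice 255, 281, 280 and 307, always in that order.

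The stretches in front of the genes show which regulatory letters the members share. For 5 of the 8 members with an entry in RefSeq's promoter table (GRCm38.p6, the build of the files), the 250 bases before the annotated start are printed 5′ to 3′ on the strand of the gene, with the motif matches in capitals. The reference carries its own H2 alleles, which may differ from those of these mice. The capitals mark a core of the interferon-stimulated response element (GAAA, any 2 bases, GAAA), the NF-kB element of class I enhancer A (GGGGATT directly followed by CCCC), and TGACG followed after 20 bases by ATTGG. In class I promoters TGACG belongs to the X2 box, bound by the ATF and CREB family, and ATTGG to the Y box, bound by NF-Y.
B2m, chr2:122147437-122147686, plus strand: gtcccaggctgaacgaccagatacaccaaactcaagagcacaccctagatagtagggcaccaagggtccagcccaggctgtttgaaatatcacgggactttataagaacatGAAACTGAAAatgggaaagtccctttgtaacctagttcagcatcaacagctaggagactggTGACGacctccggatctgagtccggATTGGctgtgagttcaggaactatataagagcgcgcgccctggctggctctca
H2-K1, chr17:34000334-34000583, minus strand: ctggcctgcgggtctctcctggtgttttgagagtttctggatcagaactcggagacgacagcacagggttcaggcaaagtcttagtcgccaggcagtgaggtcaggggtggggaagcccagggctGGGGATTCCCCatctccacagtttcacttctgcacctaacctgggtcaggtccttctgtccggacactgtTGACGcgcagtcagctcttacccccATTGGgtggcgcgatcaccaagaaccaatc
H2-D1, chr17:35262844-35263093, plus strand: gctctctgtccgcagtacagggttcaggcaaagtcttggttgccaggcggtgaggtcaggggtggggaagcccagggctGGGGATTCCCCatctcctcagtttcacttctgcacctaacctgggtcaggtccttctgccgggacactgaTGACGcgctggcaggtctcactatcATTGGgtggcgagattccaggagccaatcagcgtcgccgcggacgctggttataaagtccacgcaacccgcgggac
H2-M3, chr17:37269984-37270233, plus strand: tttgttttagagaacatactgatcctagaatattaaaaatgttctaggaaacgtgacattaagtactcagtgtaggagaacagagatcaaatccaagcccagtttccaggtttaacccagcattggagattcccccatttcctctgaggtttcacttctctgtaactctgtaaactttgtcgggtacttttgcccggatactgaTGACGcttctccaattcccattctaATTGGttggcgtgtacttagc
H2-T23, chr17:36032702-36032951, minus strand: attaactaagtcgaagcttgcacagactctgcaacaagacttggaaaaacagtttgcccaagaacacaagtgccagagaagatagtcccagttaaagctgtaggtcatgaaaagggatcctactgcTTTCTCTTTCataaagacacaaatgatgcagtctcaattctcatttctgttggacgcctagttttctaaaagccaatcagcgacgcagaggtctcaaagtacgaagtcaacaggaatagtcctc

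The spaced pair stood in 4 of these windows, with its first base 78 bases before the start in B2m, 55 in H2-K1, 101 in H2-D1 and 46 in H2-M3. Both strands were searched. The pair is found in 30 of 32851 promoter windows, which is 0.0913%, and its spacing was chosen after the sequences had been seen. H2-K1 and H2-D1 shared the NF-kB element, 125 and 171 bases before the start, and 10 of the 32851 windows, or 0.0304%, hold it. The exact core of the interferon element matched in B2m, 139 bases before the start, and on the opposite strand in H2-T23, 124 bases before the start. It is held by 2.98% of all windows. Looser forms were not searched. The windows of H2-K1, H2-D1 and H2-M3 all hold gtttcacttct, which matches the core in part on the opposite strand and is not marked. No matches overlapped. The windows of Tap1, Tapbp and Erap1 held none of the 3 motifs. The window of Tap1 was 225 bases, since the bases inside the first exon of Psmb9, on the other strand, were left out, and that of Erap1 ends at a RefSeq start other than the one in the files. A match is a description of letters, and binding was not measured.

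B2m, H2-D1 and H2-M3 rose in DTG muscle on the deposited scale. These 3 of the 10 genes had at least a 2-fold change with an adjusted p under 0.005, beside 14.6% of all genes tested. None of the 10 fell, beside 16.0% of all genes, and only Erap1 had a negative log2 fold change, -0.02 with a limma adjusted p = 0.934. At an adjusted p under 0.05 with no minimum fold, Tap1, Tapbp and Nlrc5 were also higher, which makes 6 of 10 beside 25.6% of all genes. The 10 genes had a median log2 fold change of 0.94, beside -0.26 over all genes tested. In H2-D1 and H2-M3 every DTG value lay above every MckrtTA value, so 2 of 10 were separate in this direction beside 22.2% of all genes, and none was separate in the other direction beside 40.4%. In RNA of a whole muscle, more or fewer cells of a type and more or less RNA per cell cannot be told apart. Calls come from limma on log2(signal + 10), with Benjamini-Hochberg adjustment over all genes tested. For every list below, counts on the deposited scale stand beside the same 14.6% higher and 16.0% lower over all genes tested.

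**Figure D1:**
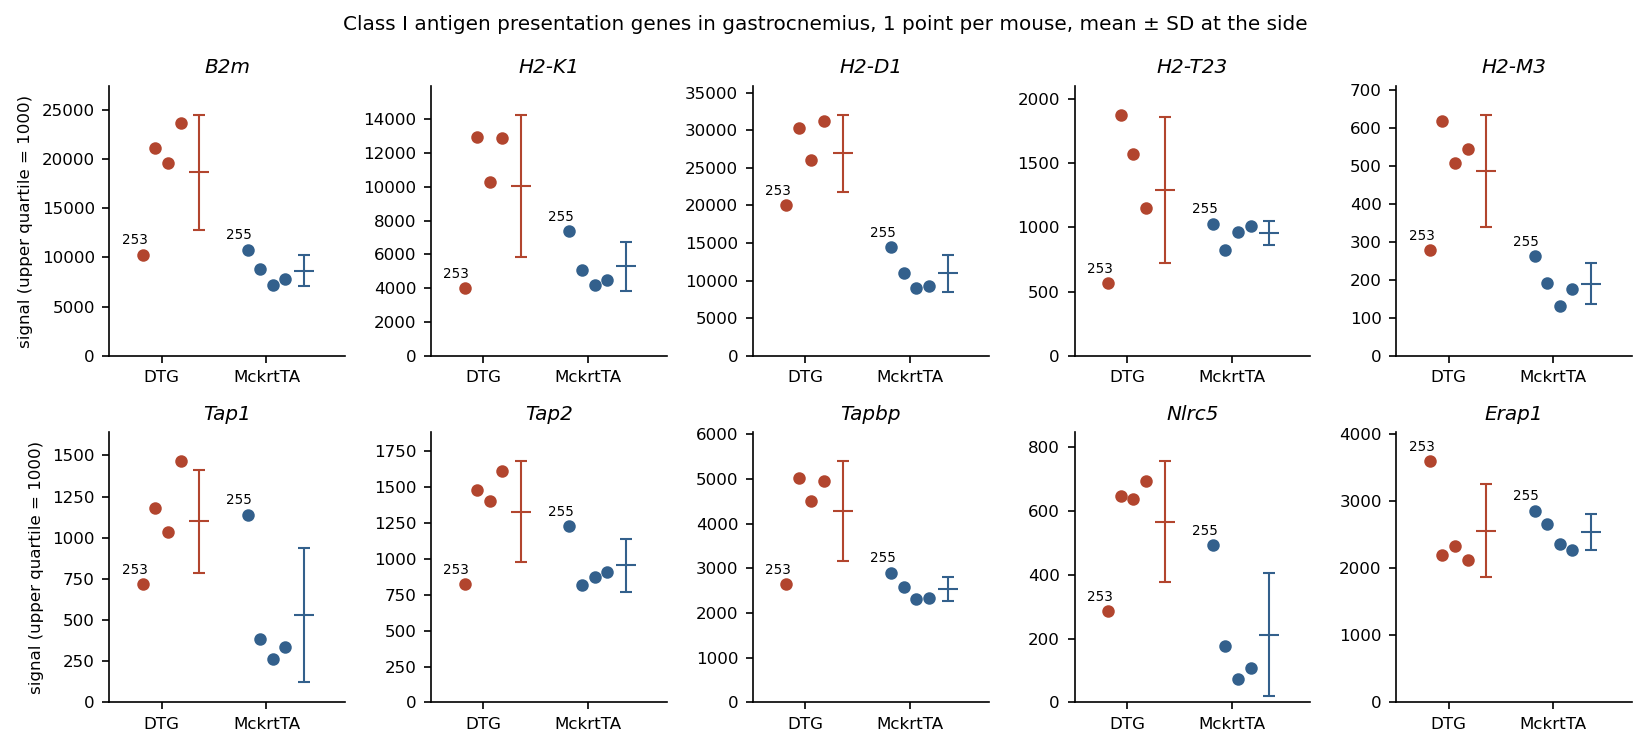
Signal of the 10 class I genes (vertical axis from 0, 75th percentile of a library = 1000) in each DTG and MckrtTA mouse, with the mean and SD of 4 mice beside the points. Mouse 253 is the lowest DTG mouse for 9 of the 10 genes and mouse 255 the highest MckrtTA mouse for all 10.

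B2m, which encodes the light chain shared by all class I molecules, is at bases 122147687 to 122153082 of chromosome 2 (mm10). Signals were 10274.5, 21091, 19549 and 23639.7 in DTG mice, against 10797, 8853, 7187 and 7824 in MckrtTA mice. All DTG mice but mouse 253 stood above every MckrtTA mouse, and mouse 253 stood just under mouse 255. The means were 18639 ± 5826 in DTG and 8665 ± 1578 in MckrtTA muscle (SD, n = 4 each), a log2 fold change of 1.05 (standard error 0.25, limma adjusted p = 0.00433). The call lies close to the threshold. It was lost with the lane as a covariate (adjusted p = 0.00729), with no variance trend (0.00708), with every gene above 0 in 1 library tested (0.00607) and within lane 1, where the log2 fold change was 0.59 (limma adjusted p = 0.287). It was also lost whenever a mouse other than 253 was left out, with adjusted p of 0.00573 to 0.0156, while without mouse 253 the log2 fold change was 1.32.

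The classical heavy chains H2-K1 and H2-D1 present peptides to CD8 T cells. H2-D1 (chromosome 17, 35263094 to 35267497) had a signal of 20068.5, 30350.4, 26089.6 and 31225 in DTG mice, against 14484, 10995, 9055 and 9315 in MckrtTA mice. The lowest DTG mouse exceeded the highest MckrtTA mouse. Means were 26933 ± 5097 in DTG and 10962 ± 2500.4 in MckrtTA muscle (SD, n = 4 each), with a log2 fold change of 1.30 (standard error 0.19, limma adjusted p = 0.000225). This was the only one of the 10 genes called whichever single mouse was left out, with log2 fold changes of 1.22 to 1.44. Within lane 1, with 2 mice of each group, it was 0.97 and not called (adjusted p = 0.0717), and within lane 8 it was 1.63.

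H2-K1 (chromosome 17, 33996012 to 34000333) had a signal of 3999, 12949, 10289 and 12898 in DTG mice, against 7382, 5058, 4221 and 4504 in MckrtTA mice. Mouse 253 had the lowest value of all 8 mice, whereas the other DTG mice stood above every MckrtTA mouse. The log2 fold change was 0.82 (standard error 0.36, limma adjusted p = 0.0689) and was not called. Without mouse 253 it was 1.21 and called (adjusted p = 0.000189).

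Of the non-classical heavy chains, H2-M3 presents peptides that begin with N-formylmethionine, as bacterial and mitochondrial proteins do. Located at 37270234 to 37274485 of chromosome 17, it had a signal of 278, 619, 507 and 545 in DTG mice, against 262, 192, 133 and 175 in MckrtTA mice. The groups did not overlap, but mouse 253 stood only slightly above mouse 255. The log2 fold change was 1.29 (standard error 0.28, limma adjusted p = 0.00243), and the call was lost without any one of 6 mice, all but 253 and 255, where the adjusted p was 0.00728 to 0.00868.

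H2-T23 encodes Qa-1, which shows the leader peptides of other class I chains to CD94/NKG2 receptors of natural killer cells. Its deposited interval on chromosome 17 runs from 36029977 to 36111424, the outer ends of 2 transcripts, and the promoter window printed above belongs to the shorter one, which starts at 36032701. The signal was 566, 1874, 1568 and 1148 in DTG mice, against 1027, 823.5, 966 and 1007 in MckrtTA mice. The MckrtTA mice lay within a narrow range, and DTG mice stood on both sides of it, with mouse 253 below and the others above. The log2 fold change of 0.30 (standard error 0.32, limma adjusted p = 0.416) was not called, and without mouse 253 it was 0.65 (adjusted p = 0.00416), below the fold of 2.

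Tap1 and Tap2 encode the subunits of the peptide transporter. Tap1 (chromosome 17, 34187556 to 34197225) had a signal of 717, 1179, 1035.5 and 1464 in DTG mice, against 1139, 387, 261 and 335 in MckrtTA mice. MckrtTA mouse 255 lay within the range of the DTG mice, and the other MckrtTA mice lay below every DTG mouse. The log2 fold change was 1.24 (standard error 0.42, limma adjusted p = 0.0242), which passed 0.05 and not 0.005. Without mouse 255 it was 1.69 and called (adjusted p = 0.000591).

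Tap2 (chromosome 17, 34204479 to 34216321) differed less between the groups. Its signal was 822, 1480.2, 1401 and 1611.5 in DTG mice, against 1225, 817, 869.7 and 905 in MckrtTA mice, a log2 fold change of 0.45 (standard error 0.22, limma adjusted p = 0.0952) that was not called. DTG mice other than 253 stood above every MckrtTA mouse, mouse 255 included.

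Tapbp encodes tapasin, which bridges the transporter and the empty heavy chain. Located at 33919478 to 33929290 of chromosome 17, it had a signal of 2650.1, 5018, 4498 and 4961.5 in DTG mice, against 2904, 2579.9, 2315 and 2347 in MckrtTA mice. The same DTG mouse, 253, lay among the MckrtTA values, and the other DTG mice lay well above them. The log2 fold change was 0.71 (standard error 0.20, limma adjusted p = 0.00977), under the fold of 2.

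Erap1, the aminopeptidase that trims peptides in the endoplasmic reticulum, did not follow the other members. On chromosome 13, from 74639872 to 74691875, it had a signal of 3587, 2194, 2334 and 2113 in DTG mice, against 2853, 2658, 2362 and 2273 in MckrtTA mice. Mouse 253 was the highest of all 8 mice here, whereas mice 283 and 306 lay below every MckrtTA mouse and mouse 282 within their range. The log2 fold change was -0.02 (standard error 0.17, limma adjusted p = 0.934), and its sign changed with the scaling and with the mice left out, from -0.19 without mouse 253 to 0.93 with equal totals.

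Nlrc5 encodes the transactivator of class I genes, which works with the RFX and NF-Y proteins. Located at 94472763 to 94527272 of chromosome 8, it rested on an estimated 170 to 555 reads in DTG and 32 to 213 reads in MckrtTA libraries. Its signal was 286, 649, 639.5 and 694 in DTG mice, against 494, 178, 71.9 and 107 in MckrtTA mice. The range within MckrtTA mice was wide, and mouse 255 stood above DTG mouse 253. Nlrc5 had the largest log2 fold change of the 10 genes, 1.66, with the largest standard error, 0.53 (limma adjusted p = 0.0189), and was called without mouse 255 at 2.17 (adjusted p = 0.00139).

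The members were not equally abundant. Divided by the mean length of their transcripts, B2m led with a mean signal per kilobase of 21673 in DTG and 10076 in MckrtTA muscle. On the same per-kilobase scale H2-D1 followed with 12813 in DTG and 5215 in MckrtTA muscle, H2-K1 with 6197 in DTG and 3268 in MckrtTA muscle, and Tapbp with 1561 in DTG and 925 in MckrtTA muscle. Nlrc5 closed the order with 81.7 in DTG and 30.6 in MckrtTA muscle. The order of B2m, H2-D1, H2-K1, Tapbp and H2-T23 from high to low was found in all 8 mice. Erap1, Tap2 and Tap1, the next in order, could not be ranked, since Erap1 exceeded Tap2 in 6 and Tap2 exceeded Tap1 in 5 of 8 mice.

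The same mice were high or low across most of the members. Mouse 255 was the highest MckrtTA mouse for 10 of 10 members, as it was for 25.8% of all genes tested, and mouse 253 the lowest DTG mouse for 9 of 10, as it was for 34.9% of all genes. The sizes differed between genes. In mouse 255 Nlrc5 was 4.16 times and Tap1 3.48 times the mean of the other MckrtTA mice, H2-K1 1.61 times, B2m 1.36 times, and H2-T23 1.10 times. In mouse 253 H2-K1 was 0.332 times the mean of the other DTG mice, Nlrc5 0.433 times, B2m 0.480 times, H2-D1 0.687 times and Erap1 1.62 times. Both mice ran on lane 1, and within lane 1 none of the 10 genes was called (limma adjusted p of 0.0717 to 0.949), beside 54 of all genes tested (0.358%) higher. Within lane 8, 7 of the 10 were higher, beside 2505 of all genes tested (16.6%). The lane and these mice cannot be told apart in that comparison. Outside the class I pathway, mouse 253 was the highest DTG mouse for 7 of 8 myofibre markers, as it was for 47.6% of all genes tested. It was the lowest for 9 of 10 macrophage and monocyte markers, whereas the 6 pan-leukocyte markers went both ways, with 3 lowest and 2 highest in this mouse. The same mouse was the lowest for 4 of 5 fibroblast markers and 5 of 6 satellite cell and new fibre markers. Its Myh3 was 0.0283 times and its Col3a1 0.214 times the mean of the other DTG mice, while its Myod1 was 1.545 times that mean. The low class I values of mouse 253 thus stand beside low values in other lists. The part of these cell types in its class I values was not tested.

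Over the 8 libraries, B2m went most closely with Tapbp (Pearson r = 0.992 on log2(signal + 10)), H2-M3 (0.982), H2-D1 (0.956) and H2-K1 (0.945), and least with H2-T23 (0.663) and Erap1 (-0.41). Among 8622 genes with a mean signal of 1000 or more in either group, members left out, the closest to B2m were Plscr3 (0.990), Pgrmc1 (0.985), Maged2 (0.984), Hpse (0.983) and Cox6a1 (0.982). These coefficients are descriptions over 8 libraries that share the difference between the groups.

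Fold changes of the members depend on how libraries are put on 1 scale. Equal totals moved the median of all genes tested up by 0.92 on the log2 scale, a trimmed mean of log ratios by 0.24 and a median of ratios by 0.28. The members moved with it, and H2-D1 stood at 2.25 with equal totals, 1.55 under the trimmed mean and 1.60 under the median of ratios. Of the 10 members, 7 were called with equal totals, 3 under the trimmed mean and 4 under the median of ratios, beside 30.8%, 17.5% and 18.1% of all genes called higher. All 10 members had a positive log2 fold change under these 3 scalings, and on the deposited scale only Erap1 had a negative one. Every member lay above the median of all genes under each of the 4 scalings.

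**Figure D2:**
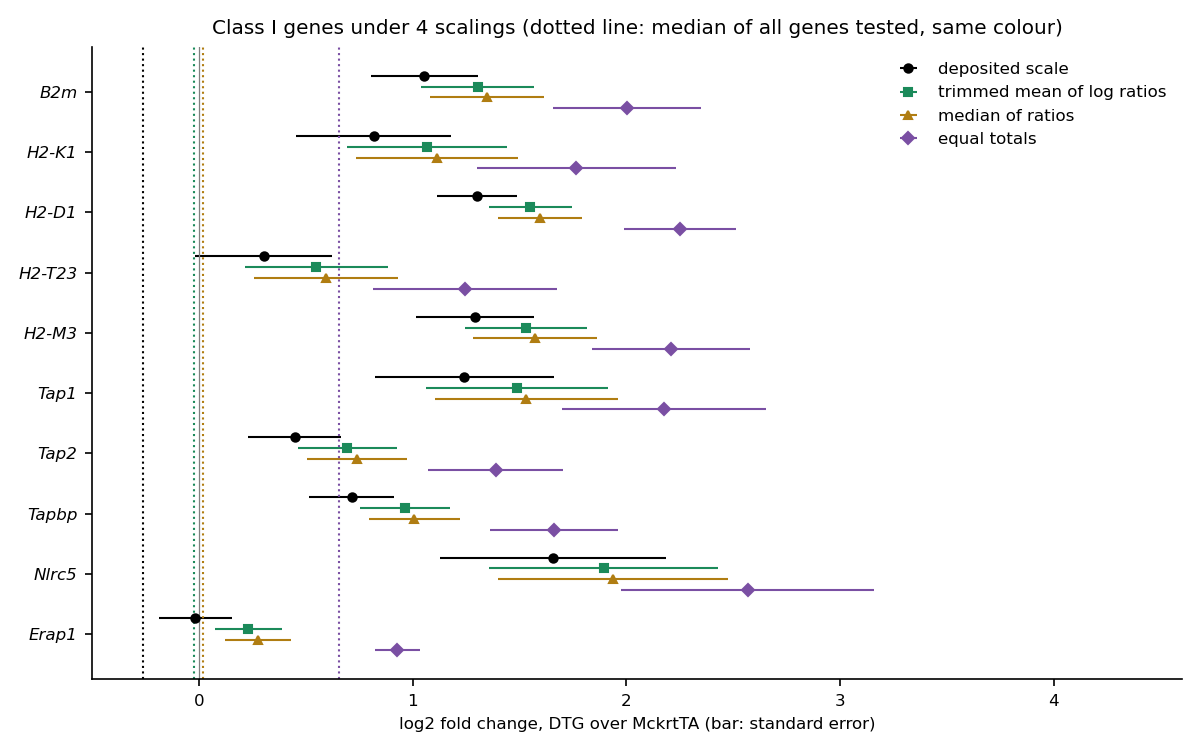
Log2 fold change, DTG over MckrtTA, of the 10 class I genes on the deposited scale and under 3 other scalings, with standard errors as bars and the median of all genes tested as a dotted line in the same colour. Points move right by about the shift of the dotted line, by 0.92 with equal totals, and each stays right of its own line.

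Ratios of a pair of genes within 1 library do not depend on that scale. With 4 mice in each group the smallest p of an exact two-sided permutation test is 0.0286, and over the 12 ratios tested none passed 0.05 after Benjamini-Hochberg adjustment, while 6 had an unadjusted p under 0.05. With this smallest p, passing after adjustment needs most of the 12 ratios to reach it together. The adjusted outcome therefore says little about any single ratio. The ratio of H2-K1 to H2-D1 was 0.199, 0.427, 0.394 and 0.413 in DTG mice, against 0.510, 0.460, 0.466 and 0.484 in MckrtTA mice. All DTG mice lay below all MckrtTA mice (exact permutation p = 0.0286, adjusted p = 0.0571). The difference in mean log2 ratio was -0.48, and -0.22 without mouse 253. The ratio of Tap1 to Tap2 was 0.873, 0.797, 0.739 and 0.908 in DTG mice, against 0.930, 0.474, 0.300 and 0.371 in MckrtTA mice (exact permutation p = 0.143, adjusted p = 0.156), with overlapping groups. The log2 difference was -0.24 for H2-K1 over B2m, -0.51 for H2-T23 over H2-K1 and 0.55 for Tap1 over Tapbp, with adjusted p of 0.152 to 0.2 in exact permutation tests.

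Leukocyte transcripts were far higher in DTG muscle, and leukocytes make class I molecules. All 6 pan-leukocyte markers rose, with a median log2 fold change of 4.82 and a summed signal of 21585 to 34398 in DTG and 863 to 1132 in MckrtTA muscle. Ptprc, which encodes CD45, had a signal of 2543, 5891, 5533 and 5089.5 in DTG mice, against 197, 180.5, 157 and 133.5 in MckrtTA mice (log2 fold change 4.69, limma adjusted p = 1.69e-06). The class I genes had smaller log2 fold changes. B2m was 3.95 ± 0.517 times the Ptprc signal in DTG and 52.0 ± 5.77 times in MckrtTA muscle (SD, n = 4 each, exact permutation p = 0.0286, adjusted p = 0.0571). For H2-D1 the ratio to Ptprc was 5.97 ± 1.41 in DTG and 65.4 ± 7.43 in MckrtTA muscle, and for H2-K1 2.04 ± 0.417 in DTG and 31.5 ± 4.97 in MckrtTA muscle, with the same p values. In these ratios every DTG mouse lay below every MckrtTA mouse. Ptprc had the far larger log2 fold change, so the lower ratios follow from it and are no separate result on the class I genes.

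All 10 macrophage and monocyte markers were higher as well, with a median of 4.88, and so were 4 of 5 fibroblast, 5 of 8 dendritic cell, 2 of 3 neutrophil and 4 of 6 satellite cell and new fibre markers. Of the endothelial markers, 1 of 7 was called, Kdr, and it was lower on the deposited scale and not called under the other 3. The summed endothelial signal was 21286 to 31069 in DTG and 32140 to 35675 in MckrtTA muscle. Of 8 myofibre markers 4 were lower and none higher. The part of these cell types in the class I values was not tested. Transcripts of the cells that read class I molecules were few. Of the listed T cell and cytotoxic cell markers 3 passed the minimum signal, and 2 of these, Cd3g and Gzmb, were higher. Neither is particular to CD8 T cells. Of 4 natural killer cell markers 2 were higher. Cd8a, which was below the minimum signal, had 6 to 18 estimated reads in DTG and 1 to 10 in MckrtTA libraries. Its signal overlapped between the groups, at 9.24 to 22.6 in DTG and 2.97 to 23.2 in MckrtTA muscle. The mean Cd8a signal was 14.4 in DTG and 12.5 in MckrtTA muscle. All listed T cell and cytotoxic cell markers, Cd8a included, summed to a signal of 43.8 to 258 in DTG and 5.93 to 39.4 in MckrtTA muscle. This sum does not show a rise of CD8 T cells.

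**Figure D3:**
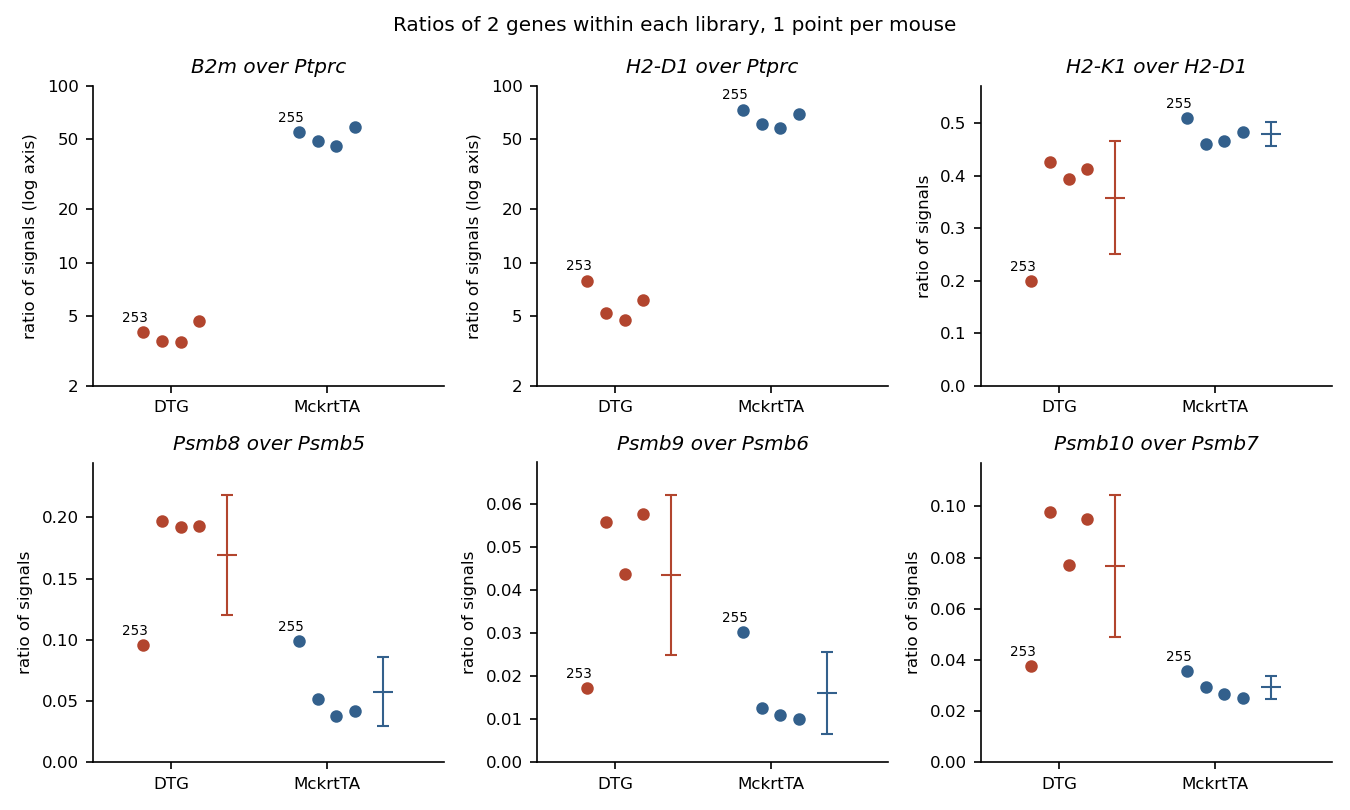
Ratio of a pair of signals within each library of DTG and MckrtTA mice, on a log axis for the ratios to Ptprc and from 0 elsewhere, where the mean and SD of 4 mice stand beside the points. B2m over Ptprc lies between 3.53 and 4.65 in DTG mice and between 45.7 and 58.6 in MckrtTA mice, whereas MckrtTA mouse 255 lies above DTG mouse 253 for Psmb8 and Psmb9 and just below it for Psmb10.

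The immunoproteasome replaces the catalytic subunits of the proteasome under interferon and makes peptides that suit class I molecules. Of its 5 genes, Psmb8 rose, and 4 were not called. Psmb8 had a signal of 828.5, 1376, 1222 and 1351 in DTG mice, against 819, 458.5, 339 and 389 in MckrtTA mice (log2 fold change 1.29, limma adjusted p = 0.00228), and mouse 253 stood just above mouse 255. Psmb9 (1.10, adjusted p = 0.0254), Psmb10 (0.66, adjusted p = 0.00318) and the activator subunit Psme2 (0.50, adjusted p = 0.0024) had positive log2 fold changes in limma, and Psme1 had one of -0.34 (adjusted p = 0.0123). The constitutive subunits that they replace, Psmb5, Psmb6 and Psmb7, stood at -0.30, -0.31 and -0.64, none called, and at 0.65, 0.64 and 0.31 with equal totals. Under equal totals 4 of the 5 immunoproteasome genes were called higher, beside 30.8% of all genes tested.

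Paired by position in the proteasome, Psmb10 was 0.0768 ± 0.0278 times Psmb7 in DTG and 0.0293 ± 0.00461 times in MckrtTA muscle (SD, n = 4 each), with separate groups (exact permutation p = 0.0286, adjusted p = 0.0571). Psmb8 was 0.169 ± 0.0492 times Psmb5 in DTG and 0.0575 ± 0.0282 times in MckrtTA muscle (exact permutation p = 0.0571, adjusted p = 0.0857). For Psmb9 over Psmb6 the ratio was 0.0435 ± 0.0186 in DTG and 0.0160 ± 0.00951 in MckrtTA muscle (exact permutation p = 0.0571, adjusted p = 0.0857). In the last pair of ratios mouse 255 stood above mouse 253. Mouse 255 was the highest MckrtTA mouse for all 5 immunoproteasome genes and mouse 253 the lowest DTG mouse for 4 of them, the pattern seen in the class I members.

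Of the other 11 genes of peptide loading, trimming and folding in the endoplasmic reticulum, Pdia3 rose, Nrd1 fell, and 9 were not called. Over all genes tested, 14.6% were higher and 16.0% lower. With equal totals 7 of the 11 were called higher and none lower, beside 30.8% of all genes higher. Under the trimmed mean and the median of ratios 2 were higher and 1 lower, beside 17.5% and 18.1% of all genes higher. Pdia3, the oxidoreductase ERp57 of the loading complex, had a signal of 12253, 18126.5, 16452 and 13652 in DTG mice, against 5528, 4733.5, 4351 and 4498 in MckrtTA mice (log2 fold change 1.65, limma adjusted p = 1.11e-05). All DTG mice, 253 included, lay above the highest MckrtTA mouse. The chaperone genes Calr, Canx and Hspa5 had separate groups too, with log2 fold changes of 0.60, 0.54 and 0.77, below the fold of 2. Hspa5 was called higher under the other 3 scalings, at 1.72 with equal totals, 1.02 under the trimmed mean and 1.07 under the median of ratios, and Calr and Canx were called with equal totals alone. The peptidase gene Nrd1 stood at -1.42 (limma adjusted p = 2.05e-05), and at -0.47 and not called with equal totals, and Tapbpl, a tapasin homologue, at 0.44 (adjusted p = 0.184).

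Among the factors that act at class I and class II promoters, Nfya and Ciita rose, Nfyb and Rfxap fell, and 4 were not called. Nfya, a subunit of the Y box factor NF-Y, had a log2 fold change of 1.08 (limma adjusted p = 2.05e-05), whereas Nfyb stood at -1.40 (adjusted p = 0.000651) and Nfyc at -0.97 (adjusted p = 2.3e-05). Rfxap stood at -1.04 (adjusted p = 7.35e-05), and Rfx5, Rfxank and Creb1 at 0.06, -0.24 and -0.27. With equal totals Nfyb stood at -0.46 and Rfxap at -0.10, neither called, and Rfxap was not called under the trimmed mean or the median of ratios either. Ciita, the class II transactivator and a relative of Nlrc5, had a signal of 239, 818, 778 and 1266 in DTG mice, against 32.5, 40.1, 27.0 and 20.8 in MckrtTA mice (log2 fold change 4.10, limma adjusted p = 4.29e-05). Nlrc5 was 0.840 ± 0.268 times Ciita in DTG and 6.86 ± 5.66 times in MckrtTA muscle (SD, n = 4 each), with separate groups (exact permutation p = 0.0286, adjusted p = 0.0571). Ciita had the larger log2 fold change, 4.10 against 1.66 for Nlrc5, so the lower ratio follows from these values. Of the 10 class II presentation genes 8 rose, with a median of 3.25.

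Genes that interferons induce were examined because interferons also raise class I genes. Of 15 genes induced by type I interferon 8 rose and none fell, with a median log2 fold change of 1.20. The number was 12 under the trimmed mean and under the median of ratios, and 15 with equal totals. Of all genes tested, 17.5%, 18.1% and 30.8% were called higher in these scalings, in that order. Oas1a, an antiviral nucleotide synthetase, had a signal of 322, 451, 411 and 673 in DTG mice, against 47.5, 34.4, 20.2 and 31.2 in MckrtTA mice (log2 fold change 3.44, limma adjusted p = 7.77e-06). Mx1 (3.71, adjusted p = 2.32e-05), Oasl1 (2.93, adjusted p = 2.45e-05) and Isg15 (1.86, adjusted p = 0.000123) were also higher. Of 11 GTPases and chemokines induced by interferon gamma, 2 rose, Cxcl10 (3.12, limma adjusted p = 0.000109) and Cxcl9 (1.91, adjusted p = 0.00287). For Cxcl9 the groups overlapped, with a signal of 141.5 in DTG mouse 253 and 148.5 in MckrtTA mouse 255. Over all genes tested the share that rose was 14.6%. Cxcl11 stood at -0.96 (adjusted p = 0.00797) and Igtp at 1.87 (adjusted p = 0.0142), neither called. Igtp had a signal of 14708 in mouse 253, against 2654 to 3272 in the other DTG mice. Ifng itself had 4 estimated reads or fewer in every library.

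Of 9 tested genes of interferon gamma signalling Irf8 rose, at 1.97 (limma adjusted p = 0.000198), and the receptor chain Ifngr2 and the kinase Jak2 fell, at -1.05 (adjusted p = 0.000113) and -1.47 (adjusted p = 3.36e-05). With equal totals they stood at -0.10 and -0.53 and were not called, whereas 5 of the 9 genes were called higher, beside 30.8% of all genes. Ifngr2 was not called under the trimmed mean or the median of ratios either. Ifngr1, the other receptor chain, stood at 0.56 (adjusted p = 0.00176). Among the MckrtTA mice, mouse 255 was the highest for 9 of the 11 GTPases and chemokines and for 11 of the 15 type I genes. It was the highest for 4 of the 9 signalling genes and for 25.8% of all genes tested. Its Gbp3 was 3.75 times, its Gbp2 2.54 times and its Irf1 2.13 times the mean of the other MckrtTA mice. Genes of the same lists also lay below that mean, with Cxcl11 at 0.717 times, Irf8 at 0.742 times and Oasl1 at 0.81 times. The part of interferon in the class I values was not tested.

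**Figure D4:**
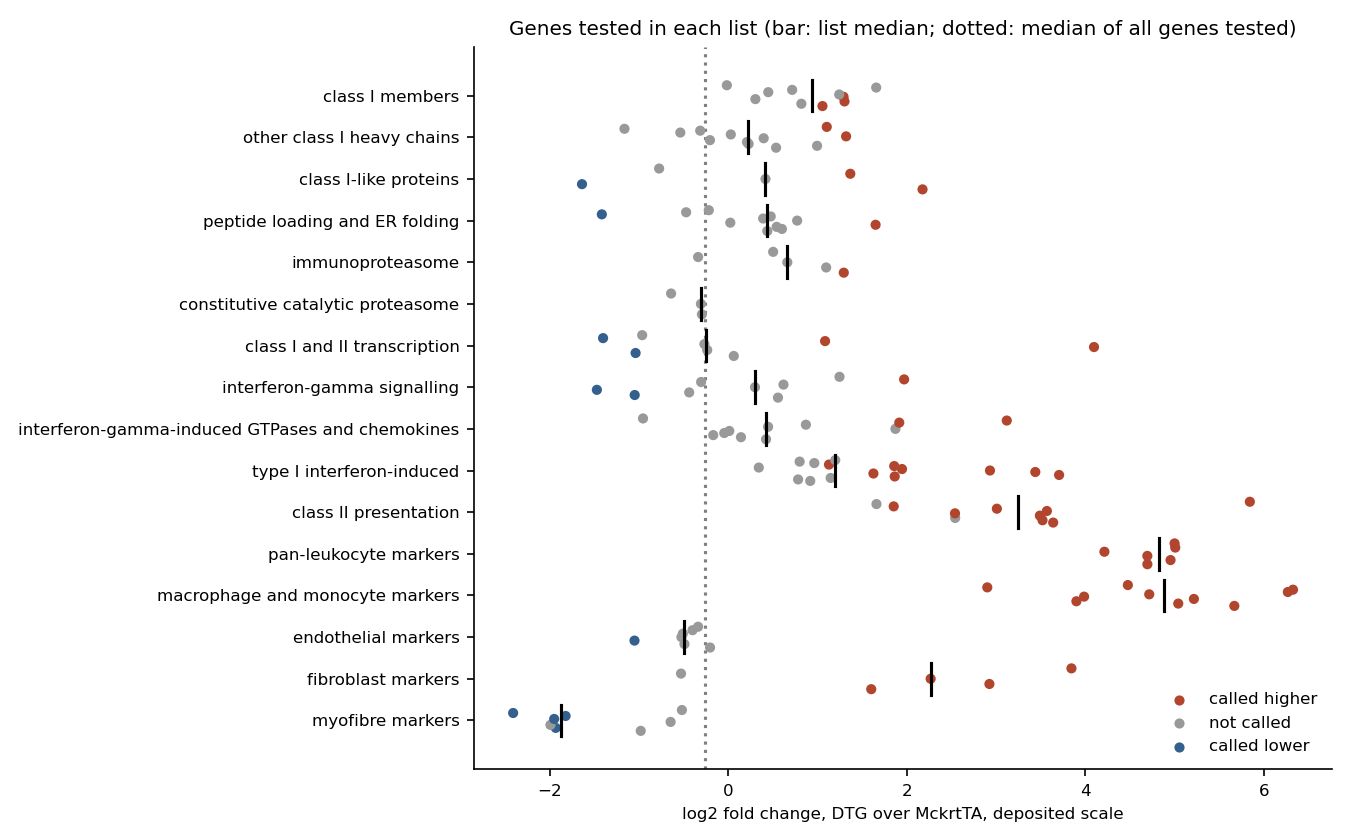
Log2 fold change, DTG over MckrtTA on the deposited scale, of each tested gene in lists around the class I pathway (horizontal axis), with called genes in colour, the median of each list as a black bar and the median of all genes tested, -0.26, as a dotted line. The class I members centre on 0.94 and the pan-leukocyte markers on 4.82.

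The mouse H2 locus holds many further heavy chain genes. Of 21 listed, 19 are in the table, and 12 were tested. Of these, 2 rose, none fell and 10 were not called, beside 14.6% of all genes higher and 16.0% lower. Their median log2 fold change was 0.22. H2-Q10, a secreted chain made mainly by the liver, had a signal of 191, 291, 278 and 295 in DTG mice, against 115, 114.5, 76.7 and 91.8 in MckrtTA mice (log2 fold change 1.32, limma adjusted p = 0.000302). H2-Bl was at 162, 174, 195 and 201 in DTG and 121, 69.2, 83.8 and 56.2 in MckrtTA mice (log2 fold change 1.10, limma adjusted p = 0.00175). Both separated the groups.

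H2-Q2 was separate as well and missed the fold of 2, at 0.99 (limma adjusted p = 0.00222). H2-Q1, H2-Q4, H2-Q5, H2-Q6 and H2-Q7 stood between -0.21 and 0.53, none called, and mouse 255 was the highest MckrtTA mouse in all 5. H2-Q6 had a signal of 223, 346, 209 and 528 in DTG mice, against 1000, 301, 147.5 and 339 in MckrtTA mice. H2-T24 stood at -1.16 (limma adjusted p = 0.0197) and was not called. H2-L, H2-T3, H2-M1, H2-M2, H2-M5, H2-M9 and H2-M10.1 were below the minimum signal. The heavy chain genes are close copies of each other, so the estimates of how reads divide between them are uncertain, the more so where the mice carry other alleles than the reference, and this holds for H2-K1, H2-D1 and H2-T23 too.

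The T region shows this division most plainly. In the annotation of the files, H2-T9 lies on the same bases as H2-T22 and H2-T10. H2-T9 had a signal of 216, 749, 668 and 82.1 in DTG mice, against 79.7, 187, 805 and 681 in MckrtTA mice, and H2-T10 one of 2228, 769.8, 734 and 1418 in DTG mice, against 2534, 2159, 1251 and 1175 in MckrtTA mice. Mice 253, 306, 255 and 281 were low for H2-T9 and high for H2-T10, and the other mice were the reverse, across both groups and both lanes. H2-T22 was at 533, 650.4, 710.0 and 361 in DTG and 632, 601, 681 and 838 in MckrtTA mice. Summed over H2-T9, H2-T10 and H2-T22, signals were far more even, at 2977.7, 2169, 2113 and 1861.5 in DTG mice, against 3246, 2947, 2737 and 2695 in MckrtTA mice. None of the 3 genes was called, at 0.03, -0.54 and -0.32.

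**Figure D5:**
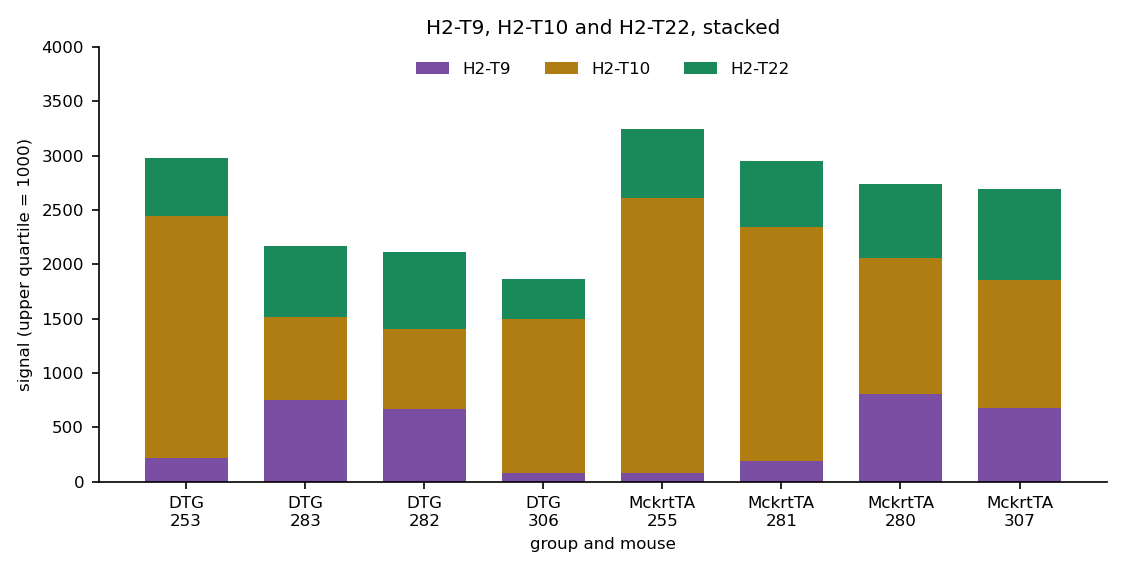
Signal of H2-T9, H2-T10 and H2-T22 stacked for each mouse, DTG mice on the left and MckrtTA mice on the right. The sum lies between 1861.5 and 2977.7 in DTG mice and between 2695 and 3246 in MckrtTA mice, while the share of H2-T9 differs from mouse to mouse within both groups.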

How the data were processed

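Gastrocnemius RNA of 4 DTG and 4 MckrtTA mice, 1 library a mouse on 2 lanes, was prepared as stranded polyA libraries and read in pairs. The lanes also differ in another code in the library names. Its meaning is not given, so lane and code cannot be told apart. The authors mapped reads to mm10 transcripts with RSEM, BWA being named as well, and deposited each gene's estimated reads as signal scaled by the upper quartile of its library. The value of 1 read was taken as the most frequent value above 0. Low values came within 0.1 of a whole read in only 88.3% to 89.6% of cases, so count tests were not run. Estimated depth was 45.6 to 58.6 M reads a library, and the lowest member value rested on 32 reads.

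The 15073 genes that reached a signal of 25 in at least 3 libraries were fitted on log2(signal + 10) in R 4.3.3 with limma 3.58.1, with a variance trend, and called at a Benjamini-Hochberg adjusted p under 0.005 with a fold change of 2 or more. Fold changes on this scale understate those of low genes. Ratios of genes within a library were compared by exact two-sided permutation tests over the 70 splits of 8 mice. Groups come from the genotype in the labels. The members and lists were chosen with earlier results of these data known. Named are all members, Akt1, Ptprc, every gene of the lists of further heavy chains, proteasome subunits and promoter factors, in other lists the 4 genes with the smallest adjusted p and called genes that move against their list, the genes of the ratios, and the 5 genes most like B2m among those with a mean of 1000 or more in either group. Some of these are given by counts only. Canx, Tapbpl, Fcgrt, H2-Eb1, Gbp2, Gbp3, Irf1, Cd8a, Ifng and Myh4 are named outside that rule, after their values were seen. Alternatives changed the amount added, the minimum signal, the scaling, the lanes, the moderation, the thresholds and the mice left out. Lengths are means over matched transcripts of the reference annotation. Sequences are from RefSeq (GRCm38.p6), and starts are counted from 1.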

Additional observations from a re-analysis of the deposited data

Results flagged for a closer look

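In 68 groups of 4 mice, 44 of signals and 24 of ratios, the highest or lowest mouse was set against the spread of its group, and in 11 it stood apart (a gap to the nearest mouse above Dixon's 95% critical share of the range). Chance does this in about 1 in 20 groups, and ratios that share a gene share the deviation.

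Among signals, DTG mouse 253 stood apart for Nlrc5, at 286 where the nearest DTG mouse was at 639.5, for Erap1, at 3587 where the nearest was at 2334, and for H2-Q10, at 191 where the nearest was at 278. MckrtTA mouse 255 stood apart for Tap1, at 1139 where the nearest MckrtTA mouse was at 387, and for H2-Q4, at 3194 where the nearest was at 1987.

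Among ratios, mouse 253 was low for H2-K1 over H2-D1, at 0.199 with the nearest DTG mouse at 0.394, and for Psmb8 over Psmb5, at 0.0957 with the nearest at 0.192. DTG mouse 306 was low for H2-T23 over H2-K1, at 0.0890 with the nearest at 0.142. Mouse 255 was high for H2-K1 over B2m, at 0.684 with the nearest MckrtTA mouse at 0.587, for Tap1 over Tapbp, at 0.392 with the nearest at 0.150, and for Psmb9 over Psmb6, at 0.0302 with the nearest at 0.0127.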

How the results depend on the processing

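The number of class I members called higher, 3, changed to 7 with equal totals, 0 within lane 1, 7 within lane 8 and 6 at an adjusted p under 0.05 with no fold minimum. Of all genes tested, 14.6% were higher in the main fit, and 30.8%, 0.358%, 16.6% and 25.6% in these settings, in that order. The number of members was 2 with the lane as a covariate, with no variance trend and with every gene above 0 in 1 library tested. It ran from 1 to 4 with each mouse left out in turn. It was 4 without mouse 253 (B2m, H2-K1, H2-D1 and H2-M3), 4 without mouse 255 (H2-D1, H2-M3, Tap1 and Nlrc5) and 1 (H2-D1) without any other mouse. Over all genes, 2207 were higher and 2405 lower. These counts were 4649 and 302 with equal totals, 54 and 4 within lane 1, 2505 and 2548 within lane 8, and 3858 and 6645 at an adjusted p under 0.05, and the lower count was 1418 under the trimmed mean and 1281 under the median of ratios. With a mouse left out, 1882 to 2761 genes were higher and 2090 to 2878 lower. Higher genes made up 47.9% of called genes, and 93.9% with equal totals, 65.0% under the trimmed mean and 68.0% under the median of ratios. Erap1, at -0.02, changed sign to 0.93 with equal totals, 0.23 under the trimmed mean, 0.28 under the median of ratios and 0.027 within lane 1, and ran from -0.19 to 0.063 with a mouse left out. The other 9 members kept their direction in every setting run. None of the 12 ratios passed 0.05 after adjustment with all mice or with 10 added to both genes. With so few mice the smallest possible p made this outcome likely in advance, so it is no sign of stability. The scaling of a library does not enter a ratio, so other scalings say nothing about it. With a mouse left out the smallest p possible is 0.0571, so those settings say nothing about the ratios. The causes were not tested. No paired analysis was possible because the labels give each mouse a number of its own and no litter.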

Other observations

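Class I-like proteins share the fold of class I heavy chains and mostly serve other tasks. Of 5 tested, Cd1d1 and Hfe rose, Mr1 fell and 2 were not called. Cd1d1, which presents lipids to natural killer T cells, had a signal of 1219, 464, 726 and 425 in DTG mice, against 128, 209, 155 and 80.1 in MckrtTA mice (log2 fold change 2.18, limma adjusted p = 0.000599). In contrast to the class I members other than Erap1, mouse 253 was the highest of the 8. Hfe, a regulator of iron uptake, was at 1436, 2392, 2387 and 1648 in DTG mice, against 747, 799, 730.3 and 679 in MckrtTA mice (log2 fold change 1.37, limma adjusted p = 0.00011). Mr1, which presents vitamin B metabolites to mucosal-associated invariant T cells, was at 1342, 1105.5, 976 and 1118 in DTG mice, against 3472, 4232, 3600.0 and 2958 in MckrtTA mice (log2 fold change -1.64, limma adjusted p = 1.02e-05), and with equal totals it stood at -0.70 and was not called. The endothelial protein C receptor gene Procr stood at -0.78 (limma adjusted p = 0.000593) with separate groups, and at 0.16 with equal totals, and Fcgrt, the neonatal Fc receptor heavy chain that also pairs with beta-2 microglobulin, at 0.42 (adjusted p = 0.288).

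Receptors of myeloid cells that bind class I molecules or are related to those that do rose in 4 of 5 cases, with a median log2 fold change of 4.03. Lilrb4 had a signal of 3232.5, 4180.5, 4347 and 3253 in DTG mice, against 63.1, 76.4, 60.3 and 71.4 in MckrtTA mice (log2 fold change 5.59, limma adjusted p = 1.09e-07), and Lilrb3 stood at 4.43 (adjusted p = 6.74e-07), Pira2 at 3.31 (adjusted p = 2.38e-05) and Pira1 at 4.03 (adjusted p = 0.000187). Of 4 tested natural killer cell markers 2 rose. Klrk1, which encodes NKG2D, had a signal of 70.7, 85.8, 100 and 118 in DTG mice, against 4.64, 8.60, 6.74 and 0 in MckrtTA mice, and Klrd1, which encodes CD94, one of 18.5, 40.9, 60.5 and 37.6 in DTG mice, against 4.64, 2.87, 0 and 2.97 in MckrtTA mice. Gzmb, the cytotoxic granule protease, was at 8.42, 95, 93.4 and 103 in DTG mice and at 0, 0, 0 and 2.97 in MckrtTA mice, and mouse 253 was again the lowest DTG mouse. The H2-Eb1 gene of class II stood at 96.0 in mouse 253, beside 4616 to 7785 in the other DTG mice and 312 to 394 in MckrtTA mice.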
